A study of Macaca mulatta with 24 samples.

Results

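The genes described here encode the proteins that coat the lipid droplet or shape it: the perilipins PLIN1, PLIN2, PLIN3, PLIN4 and PLIN5, the CIDE proteins CIDEA, CIDEB and CIDEC, and the droplet assembly proteins FITM2 and BSCL2 (seipin). These 10 genes were listed by name, for what their proteins do. Earlier results of these data were known when the list was made. Of the 32386 genes in the counts table, 9 were members of the list, and all 9 passed the filter on low counts that left 15207 genes for testing. CIDEA was not analysed here, because no row carried the identifier that the gene name table gives it.

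Levels were measured by RNA-seq of omental white adipose tissue (WAT), a visceral fat depot, from 24 female rhesus macaques that the labels give as 4 years old, while the study's methods give a higher age at biopsy. There were 4 groups of 6 animals. Controls (*C*) carried cholesterol implants and ate monkey chow, the *T* group carried testosterone implants and ate chow, the *WSD* group carried cholesterol implants and ate a high-fat Western-style diet, and the *T* + *WSD* group had testosterone implants and that diet. Treatment lasted 3 years, and every animal, controls included, carried an implant. The study's methods state that the 6 animals of each group were picked to represent a larger group. They were to reflect its overall findings, which the methods name as greater fat mass and hyperinsulinemia. Any effect of this choice on the differences in droplet genes was not tested. The tissue was taken whole, so for every gene a change in the share of one cell type and a change in the RNA of each cell cannot be told apart.

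A fat cell stores triglyceride in a droplet bounded by a single layer of phospholipid, and proteins bound to that layer decide which enzymes reach the fat inside. PLIN1 is the main droplet coat of fat cells and holds back lipolysis until it is phosphorylated, PLIN4 also belongs to fat cells, PLIN2 and PLIN3 coat droplets in most tissues, and PLIN5 is best known from oxidative tissues such as heart and muscle. CIDEC (also called FSP27) promotes the fusion of droplets into the single large droplet of white fat, CIDEB acts mainly in liver cells, and FITM2 and seipin work in the endoplasmic reticulum, where droplets are born.

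**Figure D1:**
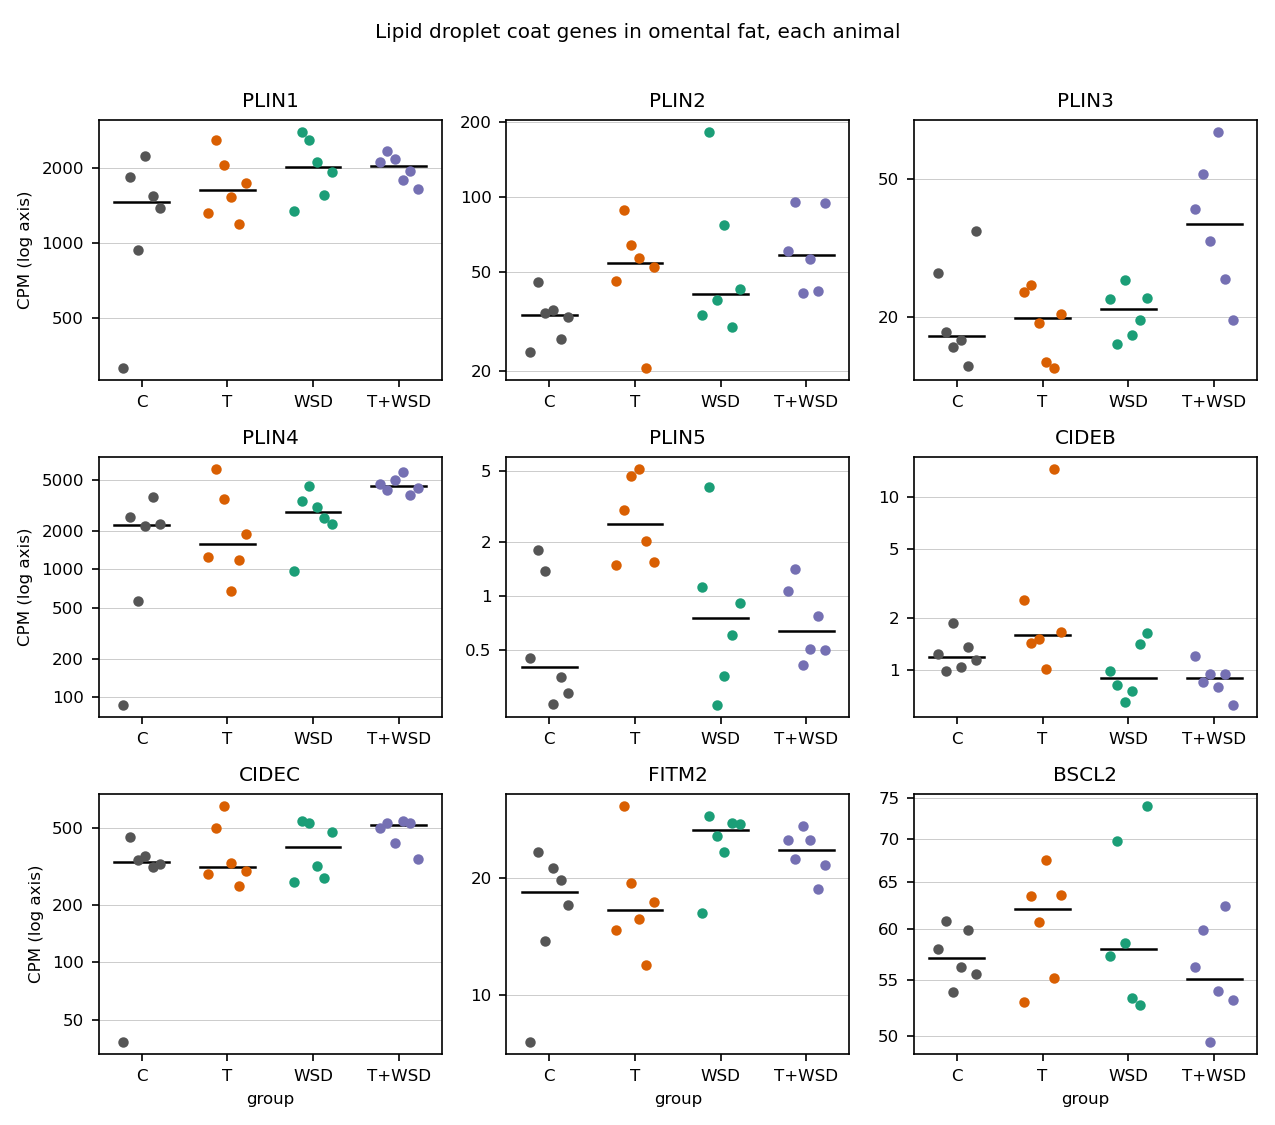
Level of each droplet coat gene in every animal, as CPM (counts scaled to a library of 1000000) on a log axis, with groups along the horizontal axis and a black bar at each group's median. PLIN4 in the 6 *T* + *WSD* animals lay between 3852 and 5749 CPM, above all controls, while BSCL2 stayed between 49.5 and 74.1 CPM in all 24 animals.

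Values are CPM, the counts of a gene relative to its library's size after TMM scaling. They were compared between groups, never between genes, because transcript length was not taken into account. A gene was called where edgeR's quasi-likelihood F-test gave an adjusted p (Benjamini-Hochberg over all tested genes) under 0.05 and the groups differed by more than 1.5-fold. For the interaction of testosterone and diet the threshold was an adjusted p under 0.1. All adjusted p values are from this test unless DESeq2 is named.

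Library totals ran from 6899185 to 28270776 counts. The 11 measured adipocyte marker genes were all detected, and their summed level was 3433 to 18393 CPM in *C* and 14294 to 25619 CPM in *T* + *WSD*. *C* replicate 1 stood apart from the other controls, with a mean adipocyte level of 6.14 on the log2 CPM scale against 8.09 to 8.86 in the other 5, and with the highest mesothelial level of the controls, 8.42. In 8 libraries, 2 in each group, a single gene took over 5% of the counts, from 9.92% in *C* replicate 1 to 54.7% in *T* + *WSD* replicate 8. They were replicates 1 and 2 of *C*, 13 and 14 of *T*, 19 and 20 of *WSD*, and 7 and 8 of *T* + *WSD*. After TMM scaling, *T* + *WSD* replicate 8 had an effective size of 3537620 counts. These 8 libraries are called the library batch. The grouping was made from the counts alone and not from a label.

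PLIN3, which was higher, was the 1 droplet gene of 9 called in *T* + *WSD* compared with *C*. Among all tested genes 10% were called in this comparison (edgeR), so 1 of 9 was close to the background. At an unadjusted p under 0.05 there were 3 genes, PLIN2, PLIN3 and PLIN4, against 32.1% of all tested genes. DESeq2 also called 1 droplet gene, against 10.9% of the genes it tested. The log2 fold change was above 0 for 7 of the 9 genes, against 45.1% of all tested genes. Its median was 0.54 over the list and -0.04 over all tested genes. Without *C* replicate 1 the values of PLIN1 to PLIN5 were 0.35, 0.92, 0.99, 1.06 and -0.07. Those of CIDEB, CIDEC, FITM2 and BSCL2 were then -0.52, 0.44, 0.32 and -0.02. No droplet gene was called in *WSD* compared with *C* or in *T* compared with *C*, where edgeR called 0% of all genes. At an unadjusted p under 0.05 there were 2 genes in *WSD* (PLIN2 and FITM2, with 18.5% of all genes passing) and 2 in *T* (PLIN5 and CIDEB, with 8.63% of all genes passing). DESeq2 called 0 of the 9 in both, against 1.58% of the genes it tested in *WSD* and 0.0466% in *T*. In *WSD* 7 of the 9 genes had a log2 fold change above 0, against 47.6% of all tested genes, with a median of 0.55. In *T* it was above 0 for 8 of the 9, against 46.5% of all tested genes, with a median of 0.34. The median over all genes was -0.02 in each. The 3 comparisons share the control animals, so these values are not independent of each other.

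**Figure D2:**
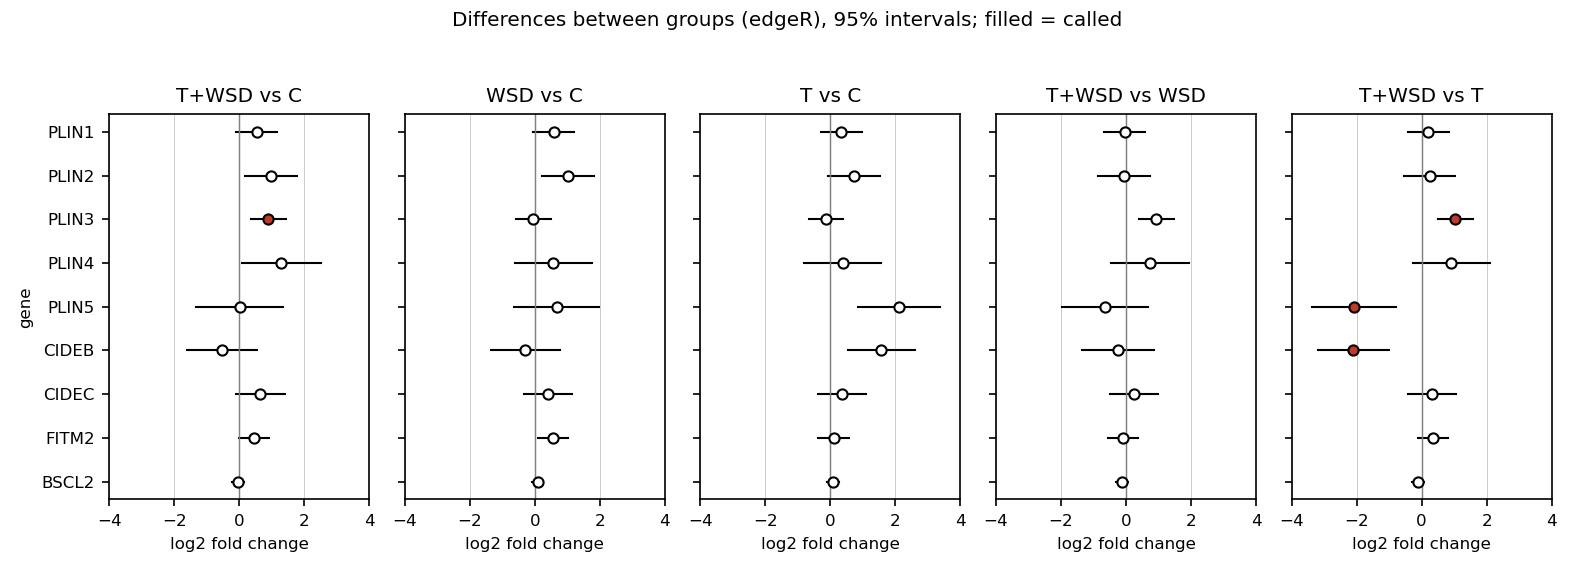
Log2 fold change of each droplet coat gene (horizontal axis) in 5 comparisons, with 95% confidence intervals from edgeR. Filled points mark called genes, which are PLIN3 in *T* + *WSD* against *C* (0.89) and PLIN3, PLIN5 and CIDEB in *T* + *WSD* against *T* (1.03, -2.09 and -2.10).

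PLIN3, also known as TIP47, is a soluble perilipin that moves from the cytosol onto newly formed droplets. It was higher in *T* + *WSD* than in *C* and *T*, by 1.86-fold and 2.05-fold. In *C* its lowest, median and highest levels were 14.4, 17.6 and 35.4 CPM. In *T* they were 14.2, 19.8 and 24.7 CPM, and in *WSD* 16.7, 21.04 and 25.6 CPM. In *T* + *WSD* they were 19.5, 37.0 and 68.7 CPM. *C*, *T* and *WSD* lay in the same low range, and *T* + *WSD* overlapped each of them at its lower end. Of the 6 *T* + *WSD* animals, 3 exceeded every control, 5 exceeded every *T* animal and 5 exceeded every *WSD* animal.

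The log2 fold change of PLIN3 in *T* + *WSD* against *C* was 0.89 ± 0.26 (SE, n = 6 per group, edgeR adjusted p = 0.0217). Without *C* replicate 1 it was 0.99 (edgeR adjusted p = 0.0309). The call was lost without *C* replicate 3 (edgeR log2 0.83, adjusted p = 0.0537) and without *T* + *WSD* replicate 10, the animal with the highest PLIN3 (edgeR log2 0.66, adjusted p = 0.0741). It was also lost within the 16 libraries outside the library batch (edgeR log2 0.84, adjusted p = 0.192) and within the 8 libraries of the batch (edgeR log2 1.06, adjusted p = 0.326). In both subsets PLIN3 was higher in *T* + *WSD*.

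Compared with *WSD*, the same diet without testosterone, PLIN3 in *T* + *WSD* differed by 0.93 ± 0.26 on the log2 scale (SE, n = 6 per group) with an edgeR adjusted p of 0.0621, so it was not called. DESeq2 gave an adjusted p of 0.0174 for the same comparison and called it. PLIN3 was then the single droplet gene of 9 called by DESeq2, against 2.54% of the genes it tested. By edgeR 0 of 9 were called and 0.815% of all tested genes, and 1 of 9 passed an unadjusted p under 0.05, as did 20% of all genes. The edgeR call appeared without *C* replicate 6 (adjusted p = 0.0499), without *WSD* replicate 21 (edgeR adjusted p = 0.0416) and without *T* + *WSD* replicate 12 (edgeR adjusted p = 0.0460). The interaction term of PLIN3, which asks whether the change with both treatments exceeds the sum of the changes with each, was 1.07 ± 0.36 (SE, n = 6 per group, edgeR adjusted p = 0.197) and missed the threshold.

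PLIN4 coats small droplets in fat cells. Its levels in *C* ran from 86.3 CPM in replicate 1 to 3684 CPM, with a median of 2216 CPM. In *T* they ran from 677 to 6157 CPM around a median of 1577 CPM. In *WSD* the lowest, median and highest were 966, 2808 and 4513 CPM. The *T* + *WSD* group was the narrowest, from 3852 to 5749 CPM with a median of 4504 CPM. Every one of the 6 *T* + *WSD* animals exceeded the highest control, which was also true of 3.49% of all tested genes. They overlapped the *T* and *WSD* animals, of which the highest reached 6157 and 4513 CPM.

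For PLIN4 the log2 fold change in *T* + *WSD* against *C* was 1.30 ± 0.58 (SE, n = 6 per group, edgeR adjusted p = 0.127), so it did not pass the test although the animals did not overlap. Its spread within groups had an SD of 1.24 on the log2 CPM scale, which put it at the 95.9th percentile of all tested genes, whose median SD was 0.322. Without *C* replicate 1 the log2 fold change was 1.06 (edgeR adjusted p = 0.166). It was 1.14 within the 16 libraries outside the library batch and 1.77 within the 8 libraries of the batch (edgeR adjusted p = 0.217 and 0.615). The largest level of PLIN4 among the 24 animals was 71.4 times the smallest.

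PLIN1 had levels of 315 to 2242 CPM in *C*, with a median of 1469 CPM. The medians were 1635 CPM in *T*, 2028 CPM in *WSD* and 2037 CPM in *T* + *WSD*, where the animals lay between 1654 and 2353 CPM. The groups overlapped throughout, and 1 of the 6 *T* + *WSD* animals lay above every control. Its log2 fold change in *T* + *WSD* against *C* was 0.54 ± 0.30 (SE, n = 6 per group, edgeR adjusted p = 0.224), and 0.35 without *C* replicate 1 (edgeR adjusted p = 0.345). PLIN1 was thus not called. PLIN1 and PLIN4 together held most of the counts assigned to the 9 genes, from 72.0% in *C* replicate 1 to 92.6% in *T* + *WSD* replicate 9.

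Set against PLIN1 in the same animal, PLIN4 stood higher in *T* + *WSD* than in the other groups. There were 2349 ± 501 PLIN4 counts for every 1000 PLIN1 counts in *T* + *WSD* (SD, n = 6), 1206 ± 756 in *C*, 1263 ± 684 in *T* and 1321 ± 366 in *WSD*. The *T* + *WSD* animals ran from 1792 to 3187, above every *WSD* animal (at most 1728) and overlapping *C* (at most 2377) and *T* (at most 2375). The PLIN4 ratio is given as a description and was not tested. How many of all genes would part the *T* + *WSD* and *WSD* animals in this way was not counted. Ratios to PLIN1 were also computed for the other members and are not given here.

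PLIN2 (adipophilin), the perilipin that binds droplets in nearly all cells, was at 23.8 to 45.6 CPM in *C*, with a median of 33.5 CPM. In *T* the lowest, median and highest were 20.5, 54.5 and 88.6 CPM. In *T* + *WSD* they were 41.1, 58.3 and 95.8 CPM, so that 4 of the 6 animals exceeded every control. In *WSD* they were 29.9, 40.7 and 183 CPM, and 2 of the 6 animals exceeded every control. The 183 CPM of *WSD* replicate 20 stood far from the next *WSD* animal, at 77.2 CPM.

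PLIN2 was not called in any comparison with all 24 animals in 1 fit. Its log2 fold change against *C* was 0.97 ± 0.39 in *T* + *WSD* (SE, n = 6 per group, edgeR adjusted p = 0.0865) and 1.03 ± 0.39 in *WSD* (SE, n = 6 per group, edgeR adjusted p = 0.182). Without *WSD* replicate 20 the *WSD* value dropped to 0.43 (edgeR adjusted p = 0.534). The same animal entered the shared estimate of the spread, and without it PLIN2 in *T* + *WSD* against *C* was 0.97 with an edgeR adjusted p of 0.0275, past the threshold. With only *C* and *T* + *WSD* in the fit, PLIN2 was called (edgeR log2 0.98, adjusted p = 0.0211) and PLIN3 was not (edgeR log2 0.89, adjusted p = 0.0689), so the number of called genes stayed at 1 while the gene changed.

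PLIN5, which ties droplets to mitochondria, had few counts, from 5 to 143 per library. In *C* the lowest, median and highest were 0.248, 0.401 and 1.81 CPM, and in *T* 1.49, 2.54 and 5.19 CPM. In *WSD* they were 0.244, 0.759 and 4.07 CPM, and in *T* + *WSD* 0.412, 0.640 and 1.41 CPM. The *T* animals were the high group, with 4 of 6 above every control and all 6 above every *T* + *WSD* animal. All 6 *T* + *WSD* animals lying below every *T* animal was seen in 3.10% of all tested genes.

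In *T* + *WSD* compared with *T*, which asks what the diet adds to testosterone, PLIN5 was lower by 2.09 on the log2 scale, a log2 fold change of -2.09 ± 0.62 (SE, n = 6 per group, edgeR adjusted p = 0.0473). The call was lost in 14 of 24 fits that each left out 1 animal, with edgeR adjusted p values up to 0.0992. These included each of the 6 *T* animals and each of the 6 *T* + *WSD* animals left out in turn, together with *WSD* replicates 19 and 23. PLIN5 in *T* against *C* had a log2 fold change of 2.11 ± 0.61 (SE, n = 6 per group, edgeR adjusted p = 0.519) and was not called, although its unadjusted p in edgeR passed 0.05. In *T* + *WSD* against *C* the log2 fold change was 0.02 ± 0.65 (SE, n = 6 per group, edgeR adjusted p = 0.987).

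The interaction term of PLIN5 was -2.76 ± 0.88 (SE, n = 6 per group, edgeR adjusted p = 0.172). DESeq2 gave an adjusted p of 0.0687 and called it at the threshold of 0.1. Without *WSD* replicate 21 the edgeR adjusted p was 0.0817, which passed, and without *WSD* replicate 20, whose 4.07 CPM was the highest of that group, the interaction was -1.92 (edgeR adjusted p = 0.341). For the interaction, edgeR called 0 of the 9 genes and 0.809% of all tested genes, DESeq2 called 1 of 9 and 2.77% of the genes it tested, and 3 of 9 had an unadjusted edgeR p under 0.05, as did 13.5% of all genes.

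Of the CIDE genes, CIDEC had 678 to 16243 counts per animal, and CIDEA was not analysed here. Its levels in *C* were 38.1 CPM in replicate 1 and 316 to 452 CPM in the other 5 controls. The lowest, median and highest were 251, 315 and 659 CPM in *T* and 261, 399 and 545 CPM in *WSD*. In *T* + *WSD* they were 346, 519 and 545 CPM, and 4 of those 6 animals exceeded every control. The log2 fold change in *T* + *WSD* against *C* was 0.65 ± 0.36 (SE, n = 6 per group, edgeR adjusted p = 0.214), which was not called. Without *C* replicate 1 it was 0.44 (edgeR adjusted p = 0.260).

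CIDEB was the lowest in counts after PLIN5, with 3 to 429 counts per library. In *C* the lowest, median and highest were 0.985, 1.19 and 1.85 CPM, and in *WSD* 0.652, 0.899 and 1.62 CPM. In *T* + *WSD* they were 0.624, 0.897 and 1.19 CPM. In *T* they were 1.02, 1.58 and 14.5 CPM, and the 14.5 CPM of *T* replicate 17, from 429 counts, stood far above the next *T* animal at 2.54 CPM. The remaining 5 *T* animals lay close to the controls, with 1 more of them, replicate 13, above every control.

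CIDEB was lower in *T* + *WSD* than in *T*, with a log2 fold change of -2.10 ± 0.52 (SE, n = 6 per group, edgeR adjusted p = 0.0250), and 5 of 6 *T* + *WSD* animals lay below every *T* animal. Without *T* replicate 17 the log2 fold change was -0.87 (edgeR adjusted p = 0.0737) and the call was lost. It was lost as well without *T* + *WSD* replicates 8, 10 and 12 in turn, with log2 fold changes of -2.06, -2.07 and -2.004 (edgeR adjusted p values of 0.05002, 0.0570 and 0.0515). In *T* against *C*, CIDEB had a log2 fold change of 1.57 ± 0.50 (SE, n = 6 per group, edgeR adjusted p = 0.519) and of 0.34 without *T* replicate 17 (edgeR adjusted p = 0.709). Its interaction term was -1.81 ± 0.73 (SE, n = 6 per group, edgeR adjusted p = 0.275), and -0.58 without that animal (edgeR adjusted p = 0.522). In *T* + *WSD* against *C* the log2 fold change was -0.53 ± 0.52 (SE, n = 6 per group, edgeR adjusted p = 0.521).

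In RefSeq's current rhesus annotation, which is a different build from that of the counts and was used only to see which genes lie side by side, CIDEB overlaps NOP9, LTB4R2, LTB4R and ADCY4. How reads in overlapping genes were counted is not given in the sources used here. In *T* replicate 17 these neighbours had 25.2, 2.13, 1.83 and 27.1 CPM, each within the range of the other 5 *T* animals. Why the CIDEB count of that animal was high was not tested. PLIN4 and PLIN5 lie next to each other in the same annotation, and PLIN4 overlaps HDGFL2, which was lower in *T* + *WSD* than in *C* (log2 -0.60, edgeR adjusted p = 0.00523). BSCL2 overlaps GNG3 and TAF6L in that annotation. Reads shared between PLIN4 and HDGFL2, or between BSCL2 and the genes it overlaps, cannot be separated from these counts.

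For *T* + *WSD* against *T* as a whole, 3 of the 9 genes were called, PLIN3 higher and PLIN5 and CIDEB lower, beside 3.77% of all tested genes. PLIN3 differed by 1.03 ± 0.26 (SE, n = 6 per group, edgeR adjusted p = 0.0250). The same 3 genes were the ones with an unadjusted p under 0.05, against 25.9% of all genes, and DESeq2 called 3 of 9, against 5.92% of the genes it tested. Within the 16 libraries outside the library batch PLIN3, PLIN5 and CIDEB had log2 fold changes of 1.11, -2.61 and -2.46 in this comparison (edgeR adjusted p = 0.0840, 0.0404 and 0.0668), and within the 8 libraries of the batch 0.95, -0.87 and -0.91 (edgeR adjusted p = 0.744, 0.873 and 0.794). The directions were the same in both subsets, and PLIN5 was called in the 16 libraries. The PLIN3 call was lost without *T* replicate 16 or 17 (edgeR adjusted p = 0.0535 and 0.0525) and without *T* + *WSD* replicate 8 or 10 (edgeR adjusted p = 0.0547 and 0.0717). Without *T* replicate 17, *T* + *WSD* replicate 8 or *T* + *WSD* replicate 10, 0 of the 9 genes were called.

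FITM2 moves triglyceride into nascent droplets. Its lowest, median and highest levels were 7.54, 18.4 and 23.3 CPM in *C* and 11.9, 16.5 and 30.7 CPM in *T*. They were 16.2, 26.6 and 28.9 CPM in *WSD* and 18.7, 23.6 and 27.2 CPM in *T* + *WSD*. The animals on the diet were mostly the high ones, with 4 of 6 *WSD* animals and 3 of 6 *T* + *WSD* animals above every control. The log2 fold change against *C* was 0.55 ± 0.22 in *WSD* (SE, n = 6 per group, edgeR adjusted p = 0.203) and 0.45 ± 0.23 in *T* + *WSD* (SE, n = 6 per group, edgeR adjusted p = 0.166). Neither was called, and without *C* replicate 1 the values were 0.40 and 0.32.

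BSCL2, whose loss causes congenital generalized lipodystrophy in people, was the steadiest of the 9 genes. Its lowest, median and highest levels were 53.9, 57.1 and 60.9 CPM in *C* and 53.0, 62.1 and 67.5 CPM in *T*. They were 52.7, 58.0 and 74.1 CPM in *WSD* and 49.5, 55.2 and 62.4 CPM in *T* + *WSD*. The 4 groups overlapped, and the highest of the 24 animals was 1.498 times the lowest. Its within-group SD of 0.14 on the log2 CPM scale was at the 7.65th percentile of all tested genes. The log2 fold change in *T* + *WSD* against *C* was -0.04 ± 0.09 (SE, n = 6 per group, edgeR adjusted p = 0.793), with a 95% interval from -0.22 to 0.14. In *C* replicate 1, where PLIN1, PLIN4, CIDEC and FITM2 were at their lowest of all 24 animals, BSCL2 was at 58.0 CPM, inside the range of the other controls.

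**Figure D3:**
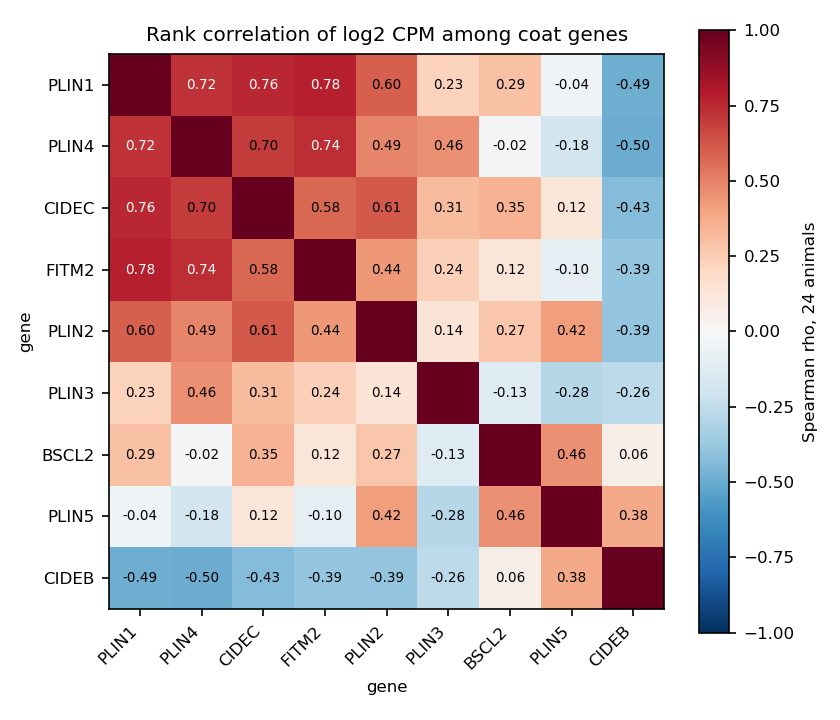
Spearman rank correlation (rho) of log2 CPM between the droplet coat genes over the 24 animals, red for positive and blue for negative values. PLIN1, PLIN4, CIDEC and FITM2 form a block with rho from 0.58 to 0.78, and CIDEB has negative rho with 6 of the other genes.

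The 4 genes PLIN1, PLIN4, CIDEC and FITM2 followed each other across the 24 animals, with Spearman's rho from 0.58 (CIDEC and FITM2) to 0.78 (PLIN1 and FITM2). After the group means were removed, rho between PLIN1 and PLIN4 was 0.85 and between PLIN1 and CIDEC 0.82. Without *C* replicate 1 the rho of PLIN1 with PLIN4, CIDEC and FITM2 was 0.68, 0.72 and 0.75. PLIN3 had rho of 0.14 to 0.46 with these 4 genes and PLIN2, and the 0.46 with PLIN4 was 0.13 after the group means were removed. These values are a description over 24 libraries in which all genes share the same tissue piece and depth.

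Over the 12605 tested genes with a symbol, the gene most like PLIN1 was RETSAT, a retinol saturase (rho = 0.92), followed by LPL, the lipoprotein lipase (0.90), and APOE (0.89). CIDEC was most like FABP4, the fat cell's fatty acid binding protein (0.85), SUMF2 (0.82) and SEC22B (0.82). PLIN4 was most like COL4A1, a basement membrane collagen (0.92), TMEM54 (0.91) and CLMP (0.91), and FITM2 was most like STRADA (0.94), TYW1 (0.91) and SGK2 (0.90). PLIN2 was most like RDH8 (0.85), SORL1 (0.83) and CPEB4 (0.82). The closest companions of PLIN3 were looser, with SEMA3C at 0.76, VOPP1 at 0.75 and ATP10D at 0.75. BSCL2 was most like TKFC (0.85), ACACB, the mitochondrial acetyl-CoA carboxylase (0.79), and UBXN6 (0.79). PLIN5, with its few counts, was most like PRKAG2, a subunit of the energy sensor AMPK (0.81), TOB2 (0.79) and SLC1A5 (0.77). CIDEB was most like SMTNL2 (0.88), EXOSC7 (0.82) and WT1, a marker of mesothelial cells (0.82).

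**Figure D4:**
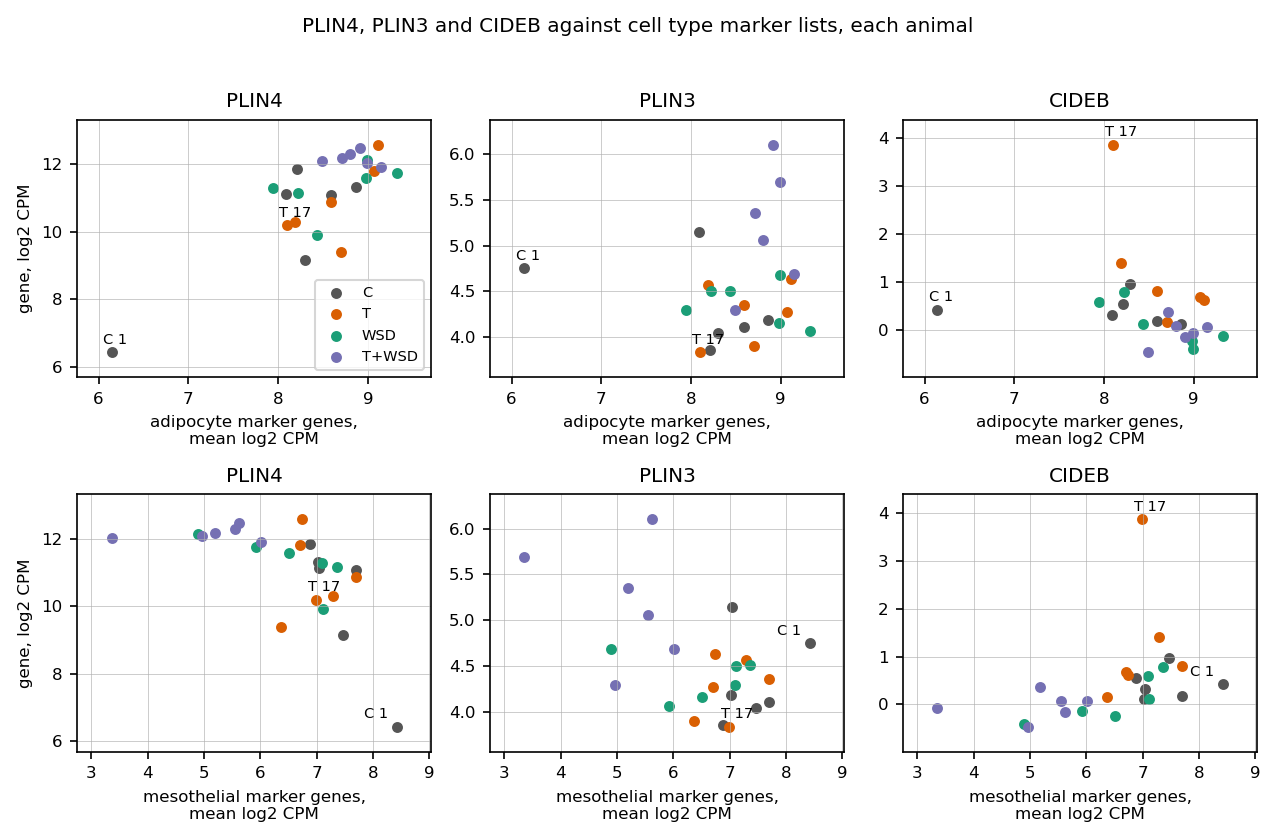
PLIN4, PLIN3 and CIDEB (vertical axes, log2 CPM) in every animal against the mean log2 CPM of the adipocyte markers (top row) and the mesothelial markers (bottom row), coloured by group. *C* replicate 1 lies apart at an adipocyte level of 6.14, and the 6 *T* + *WSD* animals lie at mesothelial levels of 3.36 to 6.02, below every control.

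Several cell type markers moved with the *T* + *WSD* group, in a comparison with *C* where edgeR called 10% of all tested genes. The mesothelium is the cell layer that covers the omentum, and 9 of its 10 measured markers were lower in *T* + *WSD* than in *C*, among them MSLN (log2 -2.99, edgeR adjusted p = 0.00650). The mean mesothelial level was 3.36 to 6.02 on the log2 CPM scale in *T* + *WSD* and 6.88 to 8.42 in *C*, and the summed level was 286 to 3285 CPM and 2963 to 40066 CPM. None of the 10 markers was at 0 in all animals of a group. With the mesothelial mean as a covariate the log2 fold change of PLIN3 in *T* + *WSD* against *C* was 0.83 with an edgeR adjusted p of 1, and those of PLIN1, PLIN2 and CIDEC were -0.13, -0.17 and -0.03. The mesothelial level did not overlap between the *C* and *T* + *WSD* animals, so this covariate and the treatment cannot be told apart here.

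The counts of called markers that follow stand beside 10% of all tested genes called by edgeR in *T* + *WSD* against *C*. Of the 11 adipocyte markers 2 were higher in *T* + *WSD* than in *C*, leptin (LEP, log2 2.20, edgeR adjusted p = 0.0442) and FABP4 (log2 0.82, edgeR adjusted p = 0.0429). Neither was called without *C* replicate 1. Of the 10 macrophage markers 3 were higher, MSR1, SPP1 and GPNMB, with a summed level of 874 to 2220 CPM against 348 to 1610 CPM in *C*. With the adipocyte or the macrophage mean as a covariate, PLIN3 in *T* + *WSD* against *C* had log2 fold changes of 0.9996 and 0.88 (edgeR adjusted p = 0.0890 and 0.0532). Of the 8 endothelial markers 5 were higher, and of the 5 tested hepatocyte markers ALB, APOB and CYP2E1 were higher. Of the 8 fibroblast and progenitor markers DPP4 was lower. Of the 6 tested muscle markers edgeR called TNNT1, which was lower. The muscle list was mixed, with 4 of the 6 log2 fold changes above 0 and a median of 1.91. All 6 had an unadjusted edgeR p under 0.05, against 32.1% of all tested genes. DESeq2 called 1 muscle marker higher and 1 lower. Without *C* replicate 1 edgeR called 9 mesothelial, 2 macrophage, 3 endothelial, 2 hepatocyte, 1 muscle and 0 fibroblast and progenitor markers. All 8 measured hepatocyte markers summed to 6.41 to 79.3 CPM in *C*, with a median of 48.0 CPM. In *T* + *WSD* they summed to 19.8 to 92.4 CPM, with a lower median of 32.3 CPM. ALB was at 6.96 ± 13.5 CPM in *T* + *WSD* (SD, n = 6), with 34.3 CPM in the highest animal. The part of these cell types in the droplet gene levels was not tested.

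The partners of the coat proteins were taken as lists, to be read beside the shares of all tested genes. In *T* + *WSD* against *C*, *WSD* against *C* and *T* against *C*, edgeR called 10%, 0% and 0% of them. In *T* + *WSD* against *WSD*, *T* + *WSD* against *T* and the interaction it called 0.815%, 3.77% and 0.809%. At an unadjusted p under 0.05 these shares were 32.1%, 18.5%, 8.63%, 20%, 25.9% and 13.5%, in the same order. DESeq2 called 10.9%, 1.58%, 0.0466%, 2.54%, 5.92% and 2.77% of the genes it tested. Among 13 tested genes that act on the droplet surface or in lipolysis, 0 were called in *T* + *WSD* against *C* by edgeR or DESeq2, with 2 at an unadjusted p under 0.05, and the median log2 fold change was 0.01. They include LIPE, the hormone-sensitive lipase that PLIN1 gives access to the droplet (log2 0.74, edgeR adjusted p = 0.0947), G0S2, an inhibitor of the triglyceride lipase (log2 0.64, edgeR adjusted p = 0.296), and ABHD5, the lipase activator that PLIN1 binds (log2 0.01, edgeR adjusted p = 0.985). The lowest of the 13 was PNPLA3 (log2 -1.23, edgeR adjusted p = 0.112). In *WSD* against *C*, *T* against *C*, *T* + *WSD* against *WSD*, *T* + *WSD* against *T* and the interaction, edgeR also called 0 of the 13, with 2 to 4 of them at an unadjusted p under 0.05. DESeq2 called 1 of the 13 higher in *WSD* against *C* and 1 lower in *T* + *WSD* against *WSD*.

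Among 14 tested genes of triglyceride synthesis and droplet formation, 1 was called in *T* + *WSD* against *C*. This was MOGAT1, a monoacylglycerol acyltransferase, at 0.831 ± 0.800 CPM in *T* + *WSD* and 0.160 ± 0.111 CPM in *C* (SD, n = 6 each, log2 2.23, edgeR adjusted p = 0.0478), and it was not called without *C* replicate 1. PCYT1A, which makes the phosphatidylcholine of the droplet surface, had a log2 fold change of 0.52 (edgeR adjusted p = 0.0114), under the fold threshold. The final enzymes of triglyceride synthesis, DGAT1 and DGAT2, had log2 fold changes of 0.02 and 0.08 (edgeR adjusted p = 0.977 and 0.941). In *T* + *WSD* against *WSD*, 2 of the 14 were lower, PCYT2 (44.6 ± 5.39 against 98.2 ± 49.3 CPM, SD, n = 6 each, edgeR adjusted p = 0.0425) and MOGAT2 (0.445 ± 0.198 against 23.4 ± 55.0 CPM, SD, n = 6 each, edgeR adjusted p = 0.0343), where a maximum of 136 CPM in *WSD* set the mean of MOGAT2. DESeq2 gave no adjusted p for MOGAT2 in this comparison. In *WSD* against *C* edgeR called 0 of the 14 and DESeq2 called 1. An unadjusted edgeR p under 0.05 was reached by 8 of the 14, against 18.5% of all tested genes. The log2 fold change was above 0 for 13 of the 14, against 47.6% of all tested genes. Its median was 0.50 against -0.02 over all genes. In *T* against *C*, *T* + *WSD* against *T* and the interaction, edgeR called 0 of the 14, with 2, 2 and 4 at an unadjusted p under 0.05. DESeq2 called 0 in the first, 1 in the second (MOGAT1, higher) and 1 in the interaction (GPAT4, below 0).

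Among 14 transcription factors known to act on droplet genes, 3 were called in *T* + *WSD* against *C*, beside 10% of all tested genes. NR1H3, the oxysterol receptor LXR alpha, was higher at 47.9 ± 6.97 against 28.0 ± 13.2 CPM (SD, n = 6 each, log2 0.78, edgeR adjusted p = 0.0324). EBF1 was higher at 107 ± 12.7 against 64.6 ± 24.6 CPM (SD, n = 6 each, log2 0.72, edgeR adjusted p = 0.0299), and all of its *T* + *WSD* animals, from 93.0 CPM, lay above the highest control, at 92.7 CPM, as did those of 3.49% of all tested genes. CEBPD, an early factor of fat cell differentiation, was lower at 22.5 ± 6.27 against 57.2 ± 28.0 CPM (SD, n = 6 each, log2 -1.34, edgeR adjusted p = 0.0389). None of the 3 was called by edgeR without *C* replicate 1, and in the other comparisons edgeR called 0 of the 14, with 1 to 5 of them at an unadjusted p under 0.05. DESeq2 called 1 of them lower in *T* + *WSD* against *WSD* and 1 in the interaction. PPARG, the receptor that drives PLIN1, PLIN4 and CIDEC in fat cells, had a log2 fold change of 0.32 (edgeR adjusted p = 0.446).

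Of 6 tested genes of oxidative and beige fat, 0 were called by edgeR or DESeq2 in the 6 comparisons. At an unadjusted p under 0.05 there were 2 in *T* + *WSD* against *WSD*, 3 in the interaction and 0 in the other comparisons. Their mean level was 5.41 on the log2 CPM scale in *WSD* replicate 20, the highest of the 24 animals and the library in which PLIN2 and PLIN5 were also the highest of the *WSD* group.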

How the data were processed

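RNA-seq libraries of omental WAT from 24 female rhesus macaques (6 each of *C*, *T*, *WSD* and *T* + *WSD*, from the sample titles) were used. The authors depleted ribosomal RNA and sequenced single reads. Their processing notes list FastQC 0.11.5, Trimmomatic 0.36, STAR 2.5.2b and DESeq2 1.18.1, and the methods name rheMac8. They deposited raw counts per gene. The counting tool and strand setting are not given in the sources used here, so overlapping, antisense and near-identical genes are uncertain.

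The test was edgeR's quasi-likelihood F-test (version 4.0.16, R version 4.3.3) on TMM-normalized counts (glmQLFit with robust=TRUE and legacy=TRUE, 1 fit to 24 animals), after filterByExpr (min.count of 10, min.total.count of 15). The p values are two-sided. Log2 CPM used a prior count of 2. DESeq2 1.42.0 was an alternative, and the test was tested on simulated data. Totals of 6899185 to 28270776 counts limit precision most for PLIN5 and CIDEB. Libraries of the same group, 60 pairs in all, held no identical pair. Covariates, normalizations, filters and leaving out each animal were further alternatives. The droplet genes and lists were chosen with earlier results of these data known. All members are named. List genes are named where called, with others (LIPE, G0S2, ABHD5, PNPLA3, PCYT1A, DGAT1, DGAT2 and PPARG) chosen after their values were seen, and the 3 genes most alike by rho are given for each member. Protein and promoter sequences were not used here. PNPLA2, HILPDA and 10 other listed symbols were not analysed here.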

Additional observations from a re-analysis of the deposited data

Results flagged for a closer look

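In 36 groups (9 genes in 4 groups of 6 animals), the gap between the highest or lowest animal and its nearest neighbour was compared with the group's range. In this check 4 values stood out, and those of PLIN2 and PLIN5 came from the same animal. For normally distributed values, chance alone would mark about 1 in 20 groups. The CPM values were used untransformed, so this rate need not hold here. PLIN2 was at 183 CPM and PLIN5 at 4.07 CPM in *WSD* replicate 20, the highest of that group for both genes. The PLIN5 value came from 30 counts. CIDEB was at 14.5 CPM in *T* replicate 17, from 429 counts. CIDEC was at 38.1 CPM in *C* replicate 1, the animal with the lowest adipocyte marker level. *WSD* replicate 20 and *C* replicate 1 both belong to the library batch.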

How the results depend on the processing

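Changes of setting moved the number of called droplet genes as follows. The causes of these moves were not tested, and in some settings fewer samples or genes entered the fit. In *T* + *WSD* against *C* (1 called), 0 were called at a fold change over 2, in the 16 libraries outside the library batch, in the 8 libraries of the batch (chosen after seeing the data), and with the mesothelial, adipocyte or macrophage mean as a covariate. In *T* + *WSD* against *T* (3 called), 1 was called with at least 10 counts in every animal, where PLIN5 and CIDEB were not tested, 1 in the 16 libraries, 0 in the 8 libraries, 0 with the mesothelial covariate and 1 with the macrophage covariate. In *T* + *WSD* against *WSD* (0 called), 1 was called by DESeq2 and 1 with the adipocyte covariate, and DESeq2 called 1 in the interaction. With 1 animal left out, the counts ran from 0 to 2 in *T* + *WSD* against *C*, 0 to 1 against *WSD*, 0 to 3 against *T* and 0 to 1 for the interaction. For *T* + *WSD* against *C*, signs turned for PLIN5 (-0.033 in the 16 libraries, -1.13 with the mesothelial and -0.57 with the adipocyte covariate), CIDEB (0.13 and 0.020 with the same covariates), PLIN1 (-0.13), PLIN2 (-0.17) and CIDEC (-0.033) with the mesothelial covariate, and BSCL2 (0.047) with the macrophage covariate. With 1 animal left out, PLIN5 ran from -0.17 to 0.41 and BSCL2 from -0.076 to 0.0026. With only the groups compared in the fit, PLIN3 in *T* + *WSD* against *C* (edgeR adjusted p = 0.0689) and CIDEB in *T* + *WSD* against *T* (edgeR adjusted p = 0.0537) were not called, and PLIN2 in *T* + *WSD* against *C* was (edgeR adjusted p = 0.0211). PLIN5 in *T* + *WSD* against *T* was not called with RLE or upper-quartile normalization or without the filter (edgeR adjusted p = 0.0514, 0.0514 and 0.0560). No paired analysis was possible because the replicate numbers run from 1 to 24 without repeats across groups. Depth limits PLIN5 and CIDEB, with as few as 5 and 3 counts in a library.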
